A study of Homo sapiens with 4 samples.

Results

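The 43 genes described here carry names of pre-mRNA splicing regulators from the hnRNP and SR families and their close partners. The deposited table holds 57659 genes. They were chosen by gene name. The rule took names of the forms HNRNP, HNRP and SRSF, leaving out 7 rows with HNRNP pseudogene names, and added TRA2A, TRA2B, PTBP1, PTBP2, PTBP3, PCBP1, PCBP2, SYNCRIP, RALY and ELAVL1. The only measured value in the rule was the mean over the 4 libraries, used to keep 1 of the 2 rows named SRSF10. The set itself was proposed with earlier results of these data in view, so the common direction of its members is a description and not independent evidence. It holds 12 SR proteins, 2 TRA2 proteins, 21 genes with an hnRNP name and 8 other RNA-binding regulators. Among the 21 is HNRPCP, a processed pseudogene whose name the rule took in, and it is counted with the members below. HNRNPA2B1, whose name ends in a letter and digit after the first digit, was not matched and is given with an accompanying list.

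Expression was measured in 786-0 cells, a long-established line from a human renal cell carcinoma. The cells had been transfected with siRNA against SLFN5 (libraries SLFN5 siRNA 1 and SLFN5 siRNA 2) or with control siRNA (libraries control siRNA 1 and control siRNA 2), and apart from a number in the title the labels of the 4 libraries do not differ otherwise. SLFN5 is a member of the interferon-regulated Schlafen family, and the series title ties it to motility and invasiveness of these cells. The sources used here give neither the siRNA sequences nor the time after transfection. The design text speaks of triplicates although 4 libraries were analysed, and whether the libraries of 1 group are separate cultures is not labelled. A p-value below thus measures the spread between these libraries, which may be technical.

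SR proteins carry RNA recognition motifs and a tail rich in arginine and serine, bind exonic enhancers and help the spliceosome to define exons. The hnRNP proteins coat nascent transcripts, and many of them repress exons or compete with SR proteins for the same pre-mRNA. Many genes of both families control their own level by including a poison exon or keeping an intron, which sends the transcript to nonsense-mediated decay, and PTBP1 can lower its paralogue PTBP2 through the same decay pathway by making an exon be skipped.

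Values are equalised counts, the read counts per gene after the authors adjusted all libraries to a common size. Log2 changes are SLFN5 siRNA minus control siRNA on the log2(value + 1) scale with their standard error (SE), and adjusted p-values come from limma over all 15640 genes tested, with a threshold of 0.05. The target was checked first. SLFN5 had 167 and 118 equalised counts in the SLFN5 siRNA libraries, against 420.3 and 353 in the control libraries, and fell to 36.8% of control (log2 change -1.45, SE 0.21, limma adjusted p = 0.000524).

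The recovered sequencing depth was 14700669 to 17117659 counts in the SLFN5 siRNA libraries and 13187517 to 31905328 in the control libraries, which limits the smallest changes that could be called. Of 11 tested kidney and renal carcinoma markers 3 were higher (CDH6, CUBN and ANPEP) and 1 lower (VIM). That is 36.4% called, near the 29.6% of all genes tested. CUBN did not pass without SLFN5 siRNA 2 (adjusted p = 0.0769) or control siRNA 2 (0.102), ANPEP without SLFN5 siRNA 1 (adjusted p = 0.115), SLFN5 siRNA 2 (0.0600) or control siRNA 2 (log2 change 0.38, 0.350), and VIM without SLFN5 siRNA 1 (adjusted p = 0.0654), SLFN5 siRNA 2 (0.0666), control siRNA 1 (0.0896) or control siRNA 2 (0.0554). The renal lineage factor PAX8 stood at 3994 and 3392 equalised counts after SLFN5 siRNA and at 4129 and 3726 in control libraries. LRP2 had 0 recovered counts and CA9 had 4. Defining markers of other cell types were at or near 0, with 1 recovered count in all for PTPRC, 0 for CD3E and PECAM1, and 1 for DCN. The 7 leukocyte markers summed to 588 and 619 equalised counts after SLFN5 siRNA, against 205 and 214 in control libraries, nearly all of it CD68. CD68 was called higher (log2 change 1.56, limma adjusted p = 7.03e-05). The 6 fibroblast markers summed to 320 and 275, against 321 and 187, and the 6 endothelial markers to 23.6 and 45.7, against 9.54 and 23.1. Of 5 fibroblast markers tested, 1 was higher and 1 lower (40% called, against 29.6% of all genes), with log2 changes from -1.82 to 1.09. The 1 endothelial marker tested did not pass (log2 change 1.71). The part of these markers in the results below was not tested.

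Most of the splicing regulators were lower after SLFN5 siRNA, and a few were higher. Of the 42 members that could be tested, 28 fell, 4 rose and 10 did not pass, so 76.2% were called, against 29.6% of all genes tested. The lower calls made up 66.7% of tested members, against 16.3% of all genes, and the higher calls 9.52%, against 13.3%. The members' median log2 change was -0.45, against -0.03 over all genes tested, and 36 of 42 were below 0. Both SLFN5 siRNA libraries lay below both control libraries in 33 members and above them in 5, against 34.1% and 30.5% of all genes tested. SRSF12 was too low to test, at 0.519 ± 0.707 equalised counts after SLFN5 siRNA and 1.28 ± 1.81 in control libraries (SD, n = 2 each).

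**Figure D1:**
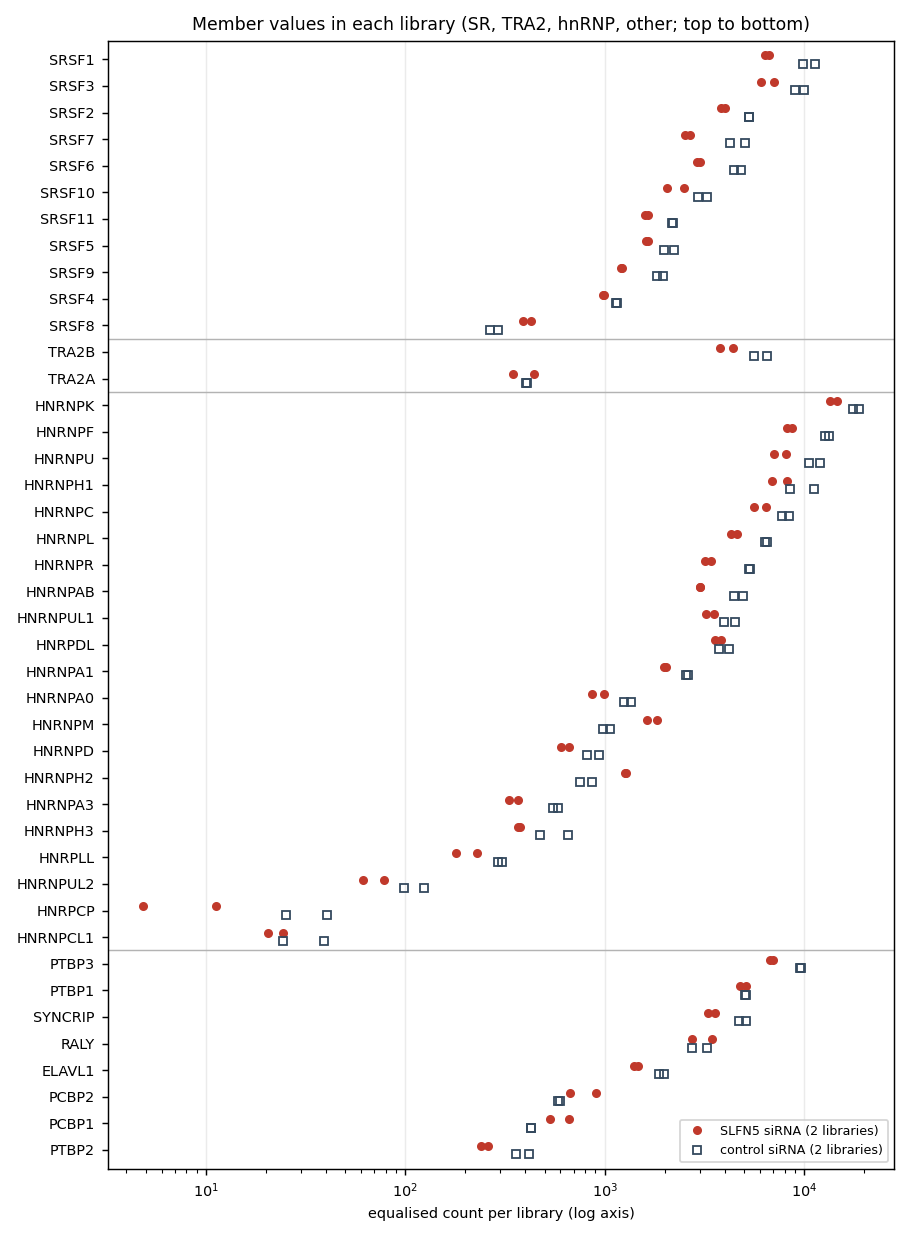
Equalised counts of the 42 tested members in each of the 4 libraries on a log axis, with SLFN5 siRNA as filled circles and control siRNA as open squares, grouped by role and ordered by level. In 33 members both circles lie left of both squares, and in SRSF8, HNRNPM, HNRNPH2, PCBP1 and PCBP2 both lie right of them.

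The members are mostly abundant, and abundant genes were called lower more often than the rest. Among the 3975 genes with a mean of at least 1000 equalised counts, 47.1% were called, 33.2% lower and 14.0% higher. Of the 30 members in that range 22 were lower (73.3%) and 2 higher (6.67%). The decreases were moderate in size. The called lower members other than the pseudogene HNRPCP stood between 55.6% and 77.8% of their control mean, with a median of 68.9% over all 28. Together the members took 0.696% and 0.761% of the recovered counts after SLFN5 siRNA, against 0.894% and 0.928% in control libraries. In these bulk libraries, fewer cells expressing a gene and less RNA per cell cannot be told apart, and values per gene do not separate splice forms.

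The authors' scaling moved SLFN5 siRNA relative to control siRNA by -0.12 log2 against a scaling by library totals alone. With library totals alone (chosen after the data were seen), 15 members were lower and 5 higher, against 11.2% and 17.7% of all genes. The split of all calls then shifted to 61.4% higher, against 45.1% with the authors' scaling. Relative to the median of all genes tested, the members' median was -0.42 under both scalings, but -0.28 with quantile normalization. The 13 calls lost with library totals alone were those of SRSF2, SRSF5, SRSF10, SRSF11, HNRNPA0, HNRNPA1, HNRNPC, HNRNPD, HNRNPH3, HNRNPK, HNRPLL, ELAVL1 and PTBP2. When the variance was not allowed to depend on expression level, 0 members passed in limma, with 30 at an unadjusted p under 0.05 and a smallest adjusted p of 0.0551, and 7.56% of all genes passed. Limma-voom on the recovered counts called 33 members.

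Among the SR proteins 9 of 11 tested fell (81.8%, against 16.3% of all genes tested), 1 rose and 1 did not pass. The median log2 change of the SR proteins was -0.44. SRSF7, which binds exonic enhancers and also acts in mRNA export, had the largest decrease of them. It stood at 2529 and 2673 equalised counts after SLFN5 siRNA, against 4278 and 5072 in control libraries (log2 change -0.84, SE 0.12, limma adjusted p = 0.000376). Its close relative SRSF3, a small SR protein with export and polyadenylation functions, had 6069 and 7073, against 9025 and 9949 (log2 change -0.53, SE 0.12, limma adjusted p = 0.00516). SRSF1, the prototype SR protein and a proto-oncogene product, had 6353 and 6665, against 9887 and 11376, so that it fell to 61.2% of its control mean (log2 change -0.70, SE 0.11, limma adjusted p = 0.000797). In all 3 genes the groups were separate. SRSF9, the SR protein most like SRSF1, had 1210.5 and 1226 after SLFN5 siRNA, against 1831 and 1958 in control libraries (log2 change -0.64, SE 0.12, limma adjusted p = 0.00189).

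SRSF6, which shares its domain layout with SRSF4 and SRSF5, fell to 2892 and 2995 equalised counts after SLFN5 siRNA, against 4468 and 4856 in control libraries (log2 change -0.66, SE 0.11, limma adjusted p = 0.000960). Of its relatives, SRSF5 fell to 1653 and 1615, against 2234 and 1989.6 (log2 change -0.37, SE 0.12, limma adjusted p = 0.0340). SRSF4 had 978 and 994, against 1158 and 1141, and did not pass (log2 change -0.22, SE 0.12, limma adjusted p = 0.200). Decreases of nearly equal size were found in 3 further members. SRSF2 (SC35), an enhancer-binding protein that marks nuclear speckles, had 3994 and 3852 after SLFN5 siRNA, against 5328 and 5315, a log2 change of -0.44. SRSF10, an SR protein that turns into a splicing repressor when dephosphorylated after heat shock, had 2058 and 2515, against 2943 and 3252, a log2 change of -0.44. SRSF11, found with the spliceosome, had 1589.8 and 1652, against 2203 and 2189, a log2 change of -0.44. Their limma adjusted p-values were 0.00822, 0.0209 and 0.0122 in that order.

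SRSF8 was the SR gene that moved the other way. It is a retroposed copy of SRSF2 and stood at 428 and 388 equalised counts after SLFN5 siRNA, against 267 and 290.5 in control libraries, a 1.46-fold increase (log2 change 0.55, SE 0.17, limma adjusted p = 0.0270). Over all members, 16 lost their call in at least 1 fit that left out a library, which also leaves less data to estimate the spread. Of the 41 losses 40 came with a log2 change within a factor of 1.5 of the value from all 4 libraries, the exception being HNRNPH3 without control siRNA 2. The log2 change of SRSF2, for example, was -0.44 without control siRNA 2 and -0.44 with all libraries. SRSF8 did not pass without SLFN5 siRNA 1 (adjusted p = 0.103), control siRNA 1 (0.151) or control siRNA 2 (0.0751). SRSF5 did not pass without SLFN5 siRNA 1 (adjusted p = 0.0676), SLFN5 siRNA 2 (0.0884), control siRNA 1 (0.285) or control siRNA 2 (0.0682). SRSF2 did not pass without control siRNA 2 (adjusted p = 0.0525), SRSF10 without SLFN5 siRNA 1 (adjusted p = 0.128) or control siRNA 2 (0.138), and SRSF11 without control siRNA 1 (adjusted p = 0.0715) or control siRNA 2 (0.0752). The calls of SRSF1, SRSF3, SRSF6, SRSF7 and SRSF9 were kept in all 4 fits that left out a library.

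The 2 TRA2 proteins are SR-like activators that bind exonic purine-rich enhancers and keep their own level in check through a poison exon. TRA2B fell to 3799 and 4413 equalised counts after SLFN5 siRNA, against 5597 and 6517 in control libraries (log2 change -0.56, SE 0.12, limma adjusted p = 0.00502). TRA2A had 346 and 443, against 407 and 405. Its groups overlapped, and it did not pass (log2 change -0.05, SE 0.17, limma adjusted p = 0.851).

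Of the 21 tested genes with an hnRNP name 14 fell, 2 rose and 5 did not pass, with a median log2 change of -0.49. Lower calls were 66.7% of these 21, against 16.3% of all genes tested and 33.2% of those with a mean of at least 1000. HNRNPR and its paralogue SYNCRIP (hnRNP Q), which act in mRNA transport, stability and splicing, both fell. HNRNPR had 3189 and 3418 equalised counts after SLFN5 siRNA, against 5373 and 5311 in control libraries (log2 change -0.69, SE 0.11, limma adjusted p = 0.000650). SYNCRIP had 3287 and 3564, against 4705 and 5145 (log2 change -0.52, SE 0.11, limma adjusted p = 0.00428). HNRNPU, a nuclear matrix and chromatin-associated protein that binds long nuclear RNAs, fell to 7086 and 8138, against 10583 and 12098 (log2 change -0.58, SE 0.12, limma adjusted p = 0.00364). Of its relatives, HNRNPUL1 had 3228 and 3536, against 4494 and 3948, and did not pass (log2 change -0.32, SE 0.11, limma adjusted p = 0.0566). HNRNPUL2, at 61.4 and 78.7 against 98.5 and 125, did not pass either (log2 change -0.67, SE 0.27, limma adjusted p = 0.0895). Both relatives had groups that did not overlap. HNRNPUL1 passed with a filter of at least 50 equalised counts (limma adjusted p = 0.0469) and in limma-voom (adjusted p = 0.0449).

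The A and B type proteins bind exonic silencers and shuttle with mRNA. HNRNPA3 stood at 370.1 and 330.2 equalised counts after SLFN5 siRNA, against 585 and 553 in control libraries (log2 change -0.70, SE 0.15, limma adjusted p = 0.00525). HNRNPAB had 3012 and 3017, against 4482 and 4926 (log2 change -0.64, SE 0.11, limma adjusted p = 0.00119). HNRNPA1, the best known splicing repressor of this type, fell to 1996 and 2026, against 2553 and 2617 (log2 change -0.36, SE 0.11, limma adjusted p = 0.0270). HNRNPA0, a binder of AU-rich elements that is encoded without introns, had 859.8 and 991, against 1245 and 1359 (log2 change -0.49, SE 0.13, limma adjusted p = 0.0143). HNRNPD (AUF1), which takes part in the decay of AU-rich mRNAs, had 667 and 608, against 812 and 936 (log2 change -0.45, SE 0.14, limma adjusted p = 0.0298). Its paralogue HNRPDL (now HNRNPDL) had 3596 and 3829, against 4202 and 3754, with overlapping groups, and did not pass (log2 change -0.10, SE 0.11, limma adjusted p = 0.554). HNRNPA1 did not pass without SLFN5 siRNA 1 (adjusted p = 0.0719), SLFN5 siRNA 2 (0.0562), control siRNA 1 (0.116) or control siRNA 2 (0.184), HNRNPA0 without SLFN5 siRNA 1 (adjusted p = 0.0714) or control siRNA 2 (0.119), and HNRNPD without SLFN5 siRNA 2 (adjusted p = 0.101) or control siRNA 2 (0.276).

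The F and H proteins, which bind G-rich sequence and enhance or silence exons by position, went both ways. HNRNPF fell to 8171 and 8699 equalised counts after SLFN5 siRNA, against 12750.3 and 13406 in control libraries (log2 change -0.63, SE 0.11, limma adjusted p = 0.00108). HNRNPH3 had 378 and 368, against 473 and 658 (log2 change -0.58, SE 0.18, limma adjusted p = 0.0292), and did not pass without SLFN5 siRNA 1 (adjusted p = 0.0645), SLFN5 siRNA 2 (0.0767) or control siRNA 2 (log2 change -0.34, 0.374). HNRNPH1 had 6876 and 8219, against 8484 and 11259. It did not pass (log2 change -0.38, SE 0.14, limma adjusted p = 0.0669), with the control libraries further apart than the SLFN5 siRNA libraries, and it passed without control siRNA 1 (log2 change -0.58, limma adjusted p = 0.00455) or SLFN5 siRNA 2 (log2 change -0.51, limma adjusted p = 0.0472). HNRNPH2, the copy of HNRNPH1 on chromosome X, rose to 1269.8 and 1276, against 862 and 754, which is 1.58-fold (log2 change 0.66, SE 0.13, limma adjusted p = 0.00283). Its groups were separate, and the 2 SLFN5 siRNA libraries were nearly equal.

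HNRNPM, a GU-rich sequence binder with a known part in the splicing of CD44, had the largest increase of all members. It stood at 1829 and 1641 equalised counts after SLFN5 siRNA, against 1067 and 981 in control libraries, a 1.69-fold increase (log2 change 0.76, SE 0.12, limma adjusted p = 0.000956). HNRNPM and HNRNPH2 kept their calls in all 4 fits that left out a library.

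The remaining hnRNP genes were lower or did not pass. HNRNPL, a binder of CA repeats, fell to 4312 and 4626 equalised counts after SLFN5 siRNA, against 6384 and 6495 in control libraries (log2 change -0.53, SE 0.11, limma adjusted p = 0.00316). Its paralogue HNRPLL (now HNRNPLL), known for the switch of CD45 isoforms in lymphocytes, had 229 and 181, against 306 and 293 (log2 change -0.55, SE 0.19, limma adjusted p = 0.0476). HNRNPC, which binds uridine tracts and guards against the use of Alu-derived exons, had 5596 and 6448, against 7763 and 8409 (log2 change -0.43, SE 0.11, limma adjusted p = 0.0146). HNRNPK, a KH-domain binder of C-rich sequence, had 13483 and 14674, against 17629 and 18792 (log2 change -0.37, SE 0.11, limma adjusted p = 0.0234). HNRPLL did not pass without SLFN5 siRNA 2 (adjusted p = 0.189), control siRNA 1 (0.182) or control siRNA 2 (0.146), HNRNPC without SLFN5 siRNA 1 (adjusted p = 0.0925) or control siRNA 2 (0.115), and HNRNPK without SLFN5 siRNA 1 (adjusted p = 0.119), control siRNA 1 (0.0594) or control siRNA 2 (0.185). Near the detection limit, HNRNPCL1, a retroposed relative of HNRNPC, had 20.5 and 24.3, against 39.3 and 24.3, and did not pass (log2 change -0.46, SE 0.43, limma adjusted p = 0.470). HNRPCP (now HNRNPCP1), a processed pseudogene of HNRNPC that the name rule took in, had 11.2 and 4.86, against 25.2 and 40.7 (log2 change -1.97, SE 0.56, limma adjusted p = 0.0204). It did not pass without SLFN5 siRNA 2 (adjusted p = 0.0715) or control siRNA 2 (0.199), and it rests on 89 recovered counts in all.

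**Figure D2:**
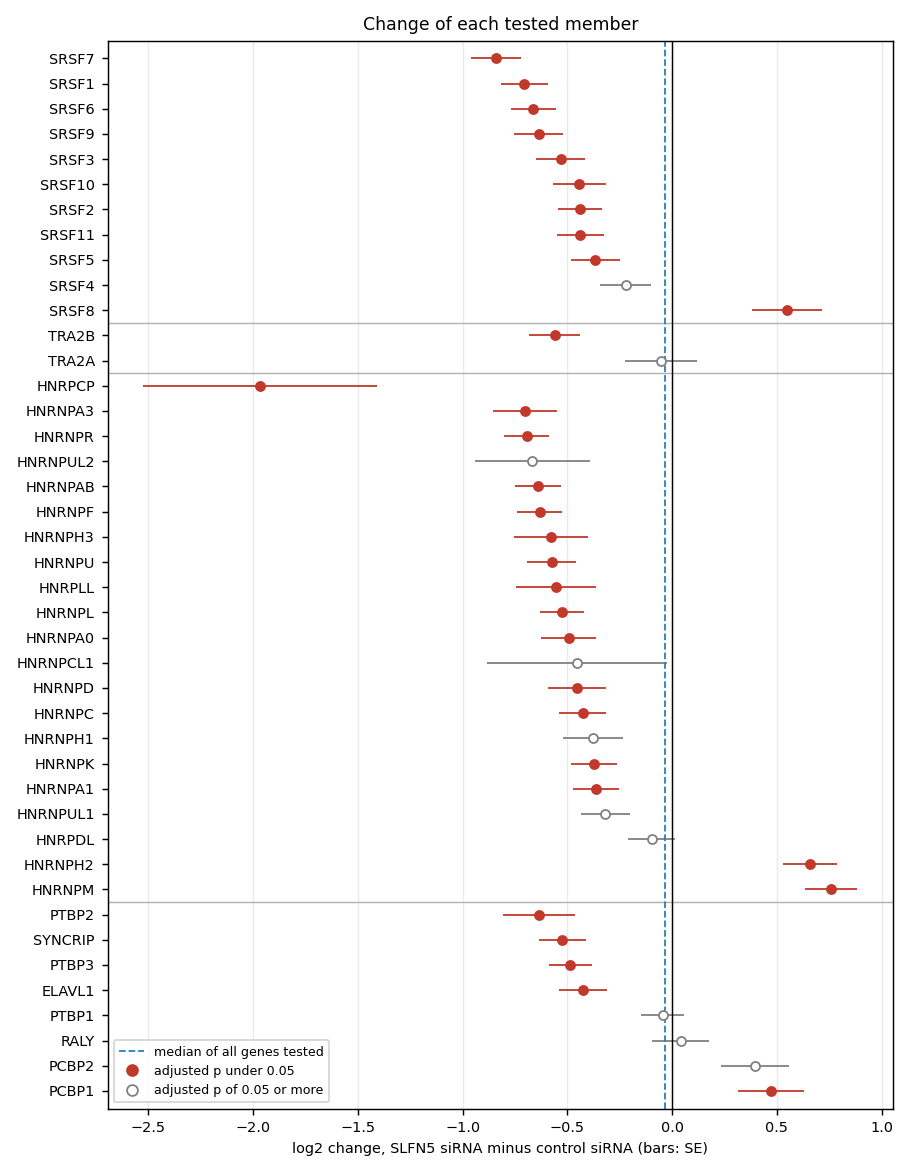
Log2 change (SLFN5 siRNA minus control siRNA) of each tested member with its standard error from limma, grouped by role. Filled points passed an adjusted p of 0.05, and the dashed line marks the median of all genes tested, -0.03. Most points lie left of that line, and HNRNPM at 0.76, HNRNPH2 at 0.66, SRSF8 at 0.55 and PCBP1 at 0.47 are the filled points to its right.

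Among the 8 other RNA-binding regulators 4 fell, 1 rose and 3 did not pass, with a median log2 change of -0.24. Lower calls were 50% of these 8, against 16.3% of all genes tested and 33.2% of those with a mean of at least 1000. Of the 3 polypyrimidine tract-binding proteins 2 fell. PTBP1, a repressor of many alternative exons, had 4802 and 5091 equalised counts after SLFN5 siRNA, against 5145 and 5065 in control libraries. Its groups overlapped, and it did not pass (log2 change -0.05, SE 0.10, limma adjusted p = 0.784). PTBP2, the neuronal paralogue whose mRNA PTBP1 can send to decay by repressing an exon, fell to 239 and 260.1, against 419.7 and 358 (log2 change -0.63, SE 0.17, limma adjusted p = 0.0168). PTBP3, the paralogue first described in blood cells, fell to 6784 and 6979.7, against 9568 and 9699 (log2 change -0.49, SE 0.10, limma adjusted p = 0.00443). PTBP2 did not pass without SLFN5 siRNA 1 (adjusted p = 0.0576) or control siRNA 1 (0.153).

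Both poly(C)-binding proteins had higher values in each SLFN5 siRNA library than in either control library, and 1 passed. PCBP1, an intronless copy of PCBP2, rose to 659 and 535 equalised counts after SLFN5 siRNA, against 429 and 427 in control libraries (log2 change 0.47, SE 0.16, limma adjusted p = 0.0404). PCBP2 had 908 and 671, against 599 and 586, and did not pass (log2 change 0.40, SE 0.16, limma adjusted p = 0.0856). SLFN5 siRNA 1 was the higher library in both genes. PCBP1 did not pass without SLFN5 siRNA 1 (adjusted p = 0.202), control siRNA 1 (0.120) or control siRNA 2 (0.145). It was also lost at the depth of the shallowest library (limma adjusted p = 0.0506), whereas PCBP2 passed without SLFN5 siRNA 2 (log2 change 0.61, limma adjusted p = 0.0158) and with library totals alone (adjusted p = 0.0264). ELAVL1 (HuR), which stabilises AU-rich mRNAs, had 1468 and 1412, against 1883 and 1991 (log2 change -0.43, SE 0.11, limma adjusted p = 0.0156). It did not pass without SLFN5 siRNA 2 (adjusted p = 0.0508), control siRNA 1 (0.0520) or control siRNA 2 (0.143). RALY, a relative of HNRNPC, had 3450.3 and 2750.4, against 3252 and 2757, with overlapping groups, and did not pass (log2 change 0.04, SE 0.14, limma adjusted p = 0.857).

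Per length of the annotated exons (GENCODE v29, union over basic transcripts), HNRNPK had the highest level of the members, with 4623 equalised counts per kb after SLFN5 siRNA and 5980.5 in control libraries. HNRNPF followed with 2593 and 4020.3, and SRSF1 with 2033 and 3320.3. HNRNPH1 was next, at 2027 after SLFN5 siRNA, a level that did not stand apart from that of SRSF1 there, and 2651 in control libraries. Of the higher members, HNRNPM had 644 and 380.1, HNRNPH2 573 and 363, and PCBP1 341 and 244 equalised counts per kb, so none of them was among the highest on this scale. The exons of PCBP1 overlap those of PCBP1-AS1 over 52.2% of their length. How shared reads were counted is not known, so the levels of such members and of those with copies may be misstated. PTBP2 was low on this scale, with 20.8 and 32.3, against 1338 and 1380.4 for PTBP1. SRSF8 had no entry under its identifier in that annotation.

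A factor that scales a whole library cancels in the ratio of paralogues within it, but an adjustment that depends on level does not. Ratios of the recovered counts, without the authors' adjustment, shifted the difference between the groups by at most 0.0089 log2, and quantile normalization shifted it by up to 0.31 log2 (both chosen after the data were seen). Of 18 paralogue pairs compared, 14 had log2 ratios that did not overlap between the groups, a share not far from the 64.6% of all genes tested whose own values did not overlap. An exact permutation test over 2 against 2 libraries cannot go below 0.333 (two-sided), and each of the 14 had that value (0.429 after Benjamini-Hochberg adjustment over the 18 pairs), so none can be called. The HNRNPH1/HNRNPH2 ratio differed most, with log2 values of 2.44 and 2.69 after SLFN5 siRNA and 3.30 and 3.90 in control libraries, a difference of -1.04. SRSF2 against its retroposed copy SRSF8 came next, with 3.22 and 3.31 after SLFN5 siRNA, against 4.31 and 4.19 in control libraries, a difference of -0.99. HNRNPH2 and SRSF8 rose, SRSF2 fell, and HNRNPH1 did not pass.

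Other pairs had separate ratios without a member that rose. The PTBP1/PTBP2 log2 ratio was 4.32 and 4.29 after SLFN5 siRNA and 3.61 and 3.82 in control libraries, and PTBP1/PTBP3 was -0.50 and -0.46 after SLFN5 siRNA, against -0.90 and -0.94 in control libraries. TRA2A/TRA2B was -3.45 and -3.31 after SLFN5 siRNA, against -3.78 and -4.00 in control libraries. The HNRNPC/RALY ratio was 0.70 and 1.23 after SLFN5 siRNA, against 1.26 and 1.61 in control libraries, with the nearest libraries of the 2 groups almost touching. In contrast, SRSF1/SRSF9, PCBP1/PCBP2, HNRNPL/HNRPLL and HNRNPUL1/HNRNPUL2 overlapped between the groups, with differences of -0.07, 0.08, 0.03 and 0.35. With quantile normalization the differences were 0.29 for HNRNPL/HNRPLL and 0.66 for HNRNPUL1/HNRNPUL2, and that of SRSF1/SRSF9 turned to 0.042.

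**Figure D3:**
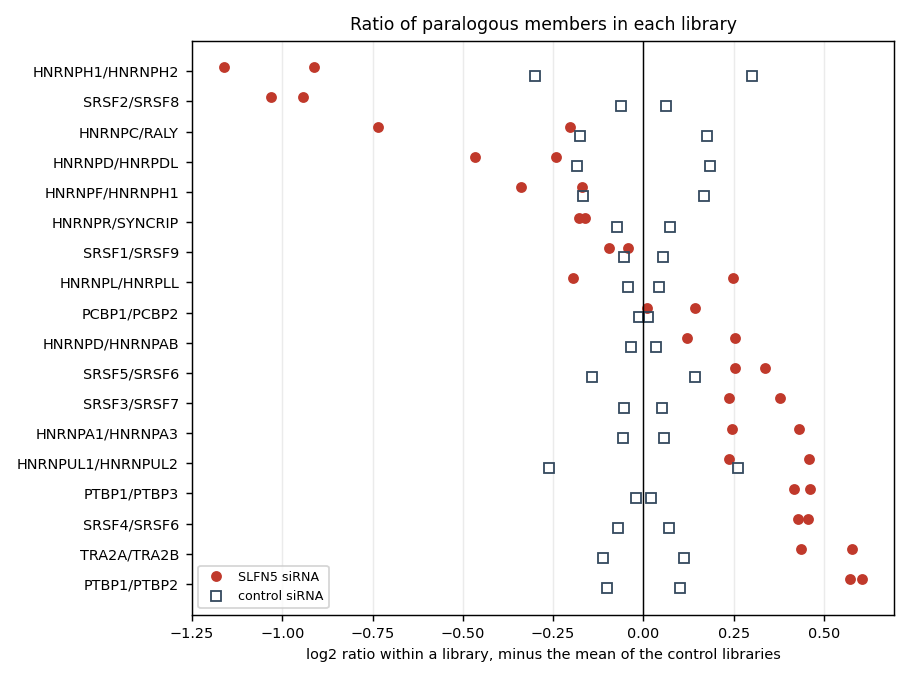
Log2 ratio of paralogous members within each library, after subtraction of the mean of the control libraries, for SLFN5 siRNA (filled circles) and control siRNA (open squares). HNRNPH1/HNRNPH2 and SRSF2/SRSF8 lie farthest to the left, and PTBP1/PTBP2 and TRA2A/TRA2B farthest to the right.

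Reads can be shared between these genes and their copies or overlapping neighbours. How such reads were counted is not known, so a low value of a copy or neighbour does not show that few were shared. HNRNPA1 has 39 pseudogene rows, 34 of them with a mean under 10. They summed to 157 and 183 equalised counts after SLFN5 siRNA, against 204 and 222 in control libraries, well under the values of HNRNPA1 itself. The 5 HNRNPK pseudogene rows summed to 183 and 205, against 262 and 224. By GENCODE v29, exons of another gene overlap those of 10 members over at least 10% of their length, which matters because the kit does not mark strand. The largest overlaps with a gene that had reads here were PCBP1-AS1 with PCBP1, MAP3K12 with PCBP2, HNRNPUL2-BSCL2 with HNRNPUL2, GATC with SRSF9 and MFSD11 with SRSF2. On the same strand, AC015813.2 overlaps 59.0% of the SRSF1 exons and AC008982.1 overlaps 22.3% of those of HNRNPL. Those genes have no deposited values, so their reads are not known. PCBP1-AS1 stood at 112 and 128 equalised counts after SLFN5 siRNA and 83.0 and 86.7 in control libraries, in the direction of PCBP1, so reads of the 2 cannot be told apart. HNRNPUL2-BSCL2 had at most 3.36 equalised counts in any library. GATC (336 and 448, against 442 and 426) and MFSD11 (242 and 284, against 242 and 284) had lower values than SRSF9 and SRSF2 and overlapped between groups, as did MAP3K12 (158 and 93.8, against 175 and 95.3).

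Transcripts destined for decay are annotated for many members. Of the 40 tested protein-coding members with an entry in GENCODE v29, 26 (65%) have at least 1 transcript annotated as a target of nonsense-mediated decay, compared with 5186 of 11860 other tested protein-coding genes (43.7%). The members also have more annotated transcripts of any kind, with a median of 11 against 8, and the part of that number in the shares was not tested. For SR proteins it is 10 of 10, and for hnRNP genes 12 of 20. A transcript with a retained intron is annotated for 67.5% of the members and 58.4% of the other genes. By call, 18 of the 27 lower members with an entry, 7 of the 10 that did not pass and 1 of the 3 higher ones have a decay transcript. It is HNRNPM, while HNRNPH2 and PCBP1 have a single annotated transcript each.

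Promoters are shown because most members moved in one direction and a few against it. The table of RefSeq promoters used here (GRCh38.p14) holds 38 of the 43 members, and the window of 250 bases before to 50 bases after each start was searched on both strands. The canonical E-box CACGTG, which MYC, MAX and USF proteins can bind, is in the windows of 8 of 38 members (21.1%) and of 8.77% of all 27305 genes with a promoter. It is in 4 of 24 lower members, 2 of 4 higher members and 2 of 9 members that did not pass. CCAAT is in 52.6% of members and 39.7% of all genes, the GC box GGGCGG in 76.3% and 48.3%, and the ETS core CCGGAAG in 21.1% and 12.2%. TATAAA is in 15.8% of members and 14.0% of all genes, and the 6 members that hold it (HNRNPAB, HNRNPC, HNRNPD, SRSF3, SRSF7 and SRSF11) were all lower. Most members were, with 24 of the 38 in the promoter set called lower. TGACGTCA, AAGATGGCG and the NRF1 site are in 0 of the 38. None of these motifs contains another. The 27305 genes were not limited to the 15640 tested here, whereas all members but SRSF12 were tested. Motif shares among tested or abundant genes were not computed, so the part of expression level in these differences was not tested. Genes with several start sites have more windows and so more chances of a match. Among the 27 members and 22114 genes with 1 start site, CACGTG is in 18.5% and 7.28%, CCAAT in 40.7% and 36.2%, GGGCGG in 70.4% and 43.0%, and CCGGAAG in 22.2% and 10.7%. A match describes letters only, and whether a factor binds there was not measured. The 150 bases before the start are printed for the called members with 1 start site that had the 2 largest increases (HNRNPM, chr19:8444825-8444974, plus strand; HNRNPH2, chrX:101408072-101408221, plus strand) and the 3 largest decreases (SRSF1, chr17:58007247-58007396, minus strand; HNRNPA3, chr2:177212644-177212793, plus strand; HNRNPR, chr1:23344285-23344434, minus strand), with CACGTG and CCAAT (on either strand) in capitals:
HNRNPM: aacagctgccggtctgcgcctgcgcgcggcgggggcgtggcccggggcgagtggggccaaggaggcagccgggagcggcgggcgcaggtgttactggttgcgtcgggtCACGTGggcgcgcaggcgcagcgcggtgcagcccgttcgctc
HNRNPH2: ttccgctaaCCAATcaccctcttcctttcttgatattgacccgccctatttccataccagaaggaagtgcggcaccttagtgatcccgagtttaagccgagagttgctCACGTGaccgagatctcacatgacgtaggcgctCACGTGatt
SRSF1: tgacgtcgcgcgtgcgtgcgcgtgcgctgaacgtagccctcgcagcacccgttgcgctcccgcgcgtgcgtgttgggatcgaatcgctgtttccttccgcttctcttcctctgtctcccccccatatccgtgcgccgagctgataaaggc
HNRNPA3: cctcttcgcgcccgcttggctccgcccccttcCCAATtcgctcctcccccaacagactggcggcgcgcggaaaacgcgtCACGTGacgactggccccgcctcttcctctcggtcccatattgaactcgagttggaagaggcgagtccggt
HNRNPR: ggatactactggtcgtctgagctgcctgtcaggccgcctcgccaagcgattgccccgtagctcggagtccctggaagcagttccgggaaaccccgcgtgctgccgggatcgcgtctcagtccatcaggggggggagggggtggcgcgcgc
Both stretches of the higher genes hold CACGTG, that of HNRNPH2 in 2 places, and so does that of HNRNPA3, which fell, while SRSF1 and HNRNPR have neither motif in this stretch. These starts are RefSeq's. GENCODE v29 starts HNRNPM at 8444767 and HNRNPA3 at 177212563, so their stretches and marked motifs lie inside those annotated genes. The SRSF1 and HNRNPR stretches lie partly inside (genes from 58007346 and 23344336, minus strand), and that of HNRNPH2 lies outside.

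SR proteins are moved and activated by kinases, phosphatases and transport factors, and 18 genes of that machinery were tested. Of these 6 fell, 2 rose and 10 did not pass (44.4% called, median log2 change -0.26). The share called was 29.6% over all genes tested and 47.1% over those with a mean of at least 1000 equalised counts. TNPO1, the import receptor of HNRNPA1, fell to 2327 and 3005 equalised counts after SLFN5 siRNA, against 6296 and 7239 in control libraries (log2 change -1.35, SE 0.14, limma adjusted p = 5.07e-05). TNPO3, the import receptor of SR proteins, was higher, at 4165 and 4394, against 3269.8 and 3202 (log2 change 0.40, limma adjusted p = 0.0141), and did not pass without SLFN5 siRNA 2 (adjusted p = 0.0562), control siRNA 1 (0.0623) or control siRNA 2 (0.101). ALYREF, an mRNA export adaptor, fell by 0.90 on the log2 scale, PPP2CA, a phosphatase catalytic subunit, by 0.69, and TOP1, a topoisomerase that also phosphorylates SR proteins, rose by 0.71. The SR protein kinases SRPK1 and SRPK2 did not pass (log2 changes -0.29 and -0.05, limma adjusted p = 0.127 and 0.795), although SRPK1 passed without SLFN5 siRNA 2 (log2 change -0.45, limma adjusted p = 0.0362). Among the other protein kinases of the list, CLK3 and PRPF4B were called lower (log2 changes -0.45 and -0.41, limma adjusted p = 0.0343 and 0.0252). Neither passed with library totals alone (limma adjusted p = 0.114 and 0.120). CLK1, CLK2, CLK4, DYRK1A, DYRK1B and AKT1 did not pass. TNPO3 and all these kinases were named here for their role, after their values were seen.

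Of 70 other splicing regulators tested, 26 fell, 4 rose and 40 did not pass (42.9% called, median log2 change -0.27). That share lay between those of all genes tested (29.6%) and of genes with a mean of at least 1000 (47.1%). By direction, 37.1% were lower, against 16.3% of all genes and 33.2% of those with a mean of at least 1000. Higher calls made up 5.71%, against 13.3% and 14.0%. HNRNPA2B1, the paralogue of HNRNPA1 that the name rule missed, fell to 4678 and 5246 equalised counts after SLFN5 siRNA, against 7747 and 7909 in control libraries (log2 change -0.66, SE 0.11, limma adjusted p = 0.000990). The largest decrease was that of NUDT21, a subunit of the cleavage factor that selects poly(A) sites, at 1622 and 1551, against 4663 and 5470.3 (log2 change -1.67, SE 0.12, limma adjusted p = 6.84e-06). RBMS1, SREK1IP1, which binds the SR-like protein SREK1, and FUBP3 fell by 1.46, 1.02 and 1.00 on the log2 scale. The 4 higher genes were TAF15, KHDRBS3, RNPS1 and CIRBP, with log2 changes of 0.87, 0.62, 0.42 and 0.40. KHDRBS3 did not pass without SLFN5 siRNA 2 (adjusted p = 0.203) or control siRNA 1 (log2 change 0.37, 0.356), RNPS1 without SLFN5 siRNA 1 (adjusted p = 0.105) or control siRNA 2 (0.186), and CIRBP without SLFN5 siRNA 1 (adjusted p = 0.0907) or control siRNA 2 (0.241). These 4 and HNRNPA2B1 were named after their values were seen.

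Genes of nonsense-mediated decay and the exon junction complex went both ways, with 5 of 21 lower, 4 higher and 12 that did not pass (42.9% called, median log2 change -0.02). Over all genes tested 29.6% were called, and 47.1% over those with a mean of at least 1000. MAGOH, a core subunit of the junction complex, fell to 389 and 440.0 equalised counts after SLFN5 siRNA, against 838 and 878 in control libraries (log2 change -1.05, SE 0.14, limma adjusted p = 0.000319). Its near-identical paralogue MAGOHB and the decapping cofactor DCP1A also fell, each by 0.79 on the log2 scale. Reads of MAGOH and MAGOHB may be shared. PNRC2, which links the decay factor UPF1 to decapping, rose to 1795 and 2054, against 1238 and 1145 (log2 change 0.69, limma adjusted p = 0.00170). UPF1, the central helicase of the pathway, did not pass (log2 change -0.12, limma adjusted p = 0.456) and was likewise named for its role.

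**Figure D4:**
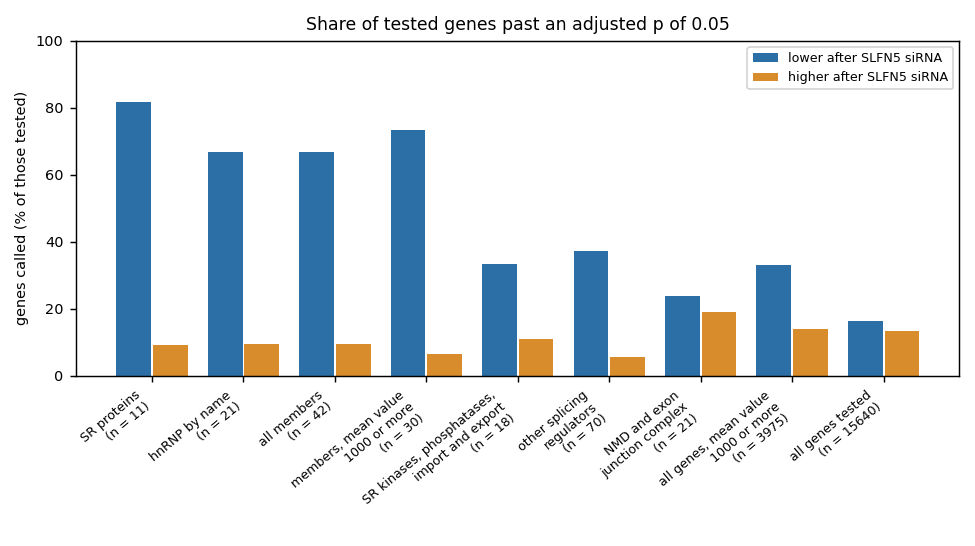
Share of tested genes past a limma adjusted p of 0.05 after SLFN5 siRNA, in percent, lower (first bar) and higher (second bar), for the members and their sub-groups, the 3 accompanying lists and all genes tested, with the number tested under each name. Lower calls made up 66.7% of the members and 81.8% of the SR proteins, against 16.3% of all genes and 33.2% of those with a mean of at least 1000.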

How the data were processed

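RNA-seq libraries of 786-0 cells, 2 after SLFN5 siRNA and 2 after control siRNA, were grouped by their titles. Per the labels' protocols, poly(A) RNA was prepared with the Illumina TruSeq RNA kit v2 and sequenced as single ends. The submitters' processing notes name hg19 and edgeR. The sources used here name no aligner, read counter or annotation. The deposited signal per gene (57659 rows, 2682 without a name) is not whole. Its values are those of the pseudo-counts of the authors' tool, read counts quantile-adjusted to 1 library size, and are called equalised counts here. Inverting that adjustment (common dispersion 0.0162) returned whole counts for 230636 of 230636 values (relative tolerance 1e-06), which served for depth, thinning, other scalings and limma-voom.

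Genes with at least 10 equalised counts in at least 2 libraries (15640) were tested on log2(value + 1) with limma 3.58.1 in R 4.3.3, with group alone, a variance trend, and adjustment by Benjamini-Hochberg across these genes (prior degrees of freedom 9.60, residual 2). The log2 scale understates changes of low genes. The steps were tested on simulated data. Members, gene lists and the rule for named genes (SLFN5, every called member, members that did not pass, and up to 4 called genes of each list with the largest log2 change and a mean of at least 50) were chosen with earlier results of these data known. In all, 16 alternatives were run. Sequences are RefSeq's (GRCh38.p14), and transcript types and exon lengths are from GENCODE v29. No coordinate was converted between builds. Python 3.11.15, pandas 2.3.3, SciPy 1.17.1 and matplotlib 3.10.9 were used for the rest.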

Additional observations from a re-analysis of the deposited data

How the results depend on the processing

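Over 16 alternatives the members' median log2 change stayed negative. The counts that moved by over 1.5 times did so as follows. With no variance trend, 0 members were lower and 0 higher, and 510 genes of all were lower and 672 higher. The SR kinase and transport list then had 2 lower and 0 higher, the other splicing regulators 5 and 0, and the decay list 2 and 0. With quantile normalization 17 members were lower and 3 decay genes were lower. The log2 change of HNRNPK was then -0.11. SRSF3 and PTBP3, whose calls were kept whichever library was left out, did not pass there (limma adjusted p = 0.0570 and 0.0588). With library totals alone, chosen after the data were seen, 15 members were lower and 3 decay genes were lower. Leaving out 1 library at a time gave 15 to 22 lower and 2 to 5 higher members, 1588 to 2341 lower and 1346 to 1767 higher genes over all, 3 to 5 and 1 to 2 in the kinase and transport list, 17 to 26 and 2 to 4 among the other regulators, and 3 to 4 and 2 to 4 in the decay list. Without control siRNA 2, the shallowest library, 15 members were lower, the fewest. The cause of these moves was not tested.

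Of the 32 called members, 14 lost their call only with no variance trend and 18 also elsewhere. Direction turned only in values that had not passed. The log2 change of TRA2A was 0.015 with upper-quartile scaling and 0.070 with library totals, and -0.23 to 0.13 when 1 library was left out. HNRPDL was 0.067 with quantile normalization and 0.025 with library totals. With upper-quartile scaling, quantile normalization and library totals, PTBP1 was 0.023, 0.16 and 0.077, and SRPK2 0.018, 0.060 and 0.073. UPF1 was 0.041 with quantile normalization and 0.0020 with library totals. With 1 library left out, RALY ranged from -0.12 to 0.20, SRPK2 from -0.12 to 0.019, and the difference in the HNRNPL/HNRPLL log2 ratio from -0.19 to 0.25. That of SRSF1/SRSF9 was 0.042 with quantile normalization.

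The titles give both groups the same 2 numbers, without saying what a number marks. The deviations of same-numbered libraries from their group means correlated at 0.19 over 15640 genes. With the number as a replicate block, 31 members were lower and 5 higher, and 6703 genes of all passed, against 4630. HNRNPH1, HNRNPUL1, HNRNPUL2 and PCBP2 then passed as well, and so did SRPK1 (limma adjusted p = 0.00681). With 2 libraries per group, a gene that did not pass is not shown to be unchanged.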
